A study of Mus musculus with 12 samples.

Results

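The genes described here are 10 core genes of MHC class I antigen presentation and of the immunoproteasome, namely B2m, H2-K1, H2-D1, Tap1, Tap2, Tapbp, Psmb8, Psmb9, Psmb10 and Nlrc5. They were taken by symbol from a table of RNA levels of 57180 genes, and all 10 passed the filter on low values that left 14426 genes for testing. RNA was measured by mRNA sequencing in 12 libraries of HC11, an established mammary epithelial line from BALB/c mice. KD cells carried a knockdown of Snail1, the repressor encoded by Snai1 that is known for its part in the epithelial-mesenchymal transition, and control cells, whose titles begin with scr, are labelled WT. Cells of both kinds were sorted, left overnight in medium with EGF and insulin to form aggregates, and put through an assay of collective migration outside the body, from which RNA was taken at 0 h and at 36 h. Each of the 4 groups, KD and control at 36 h and KD and control at 0 h, held 3 libraries, numbered 1 to 3 except for control at 36 h, whose libraries are numbered 1, 3 and 4. The authors' mean columns for the KD groups carry the prefix sh, and beyond that the sources used here do not describe the construct. They do not say whether the KD cells were 1 clone or a pool, by which marker they were sorted, or whether the 3 libraries per group were grown apart. The p-values therefore cover no more than the spread between these libraries, which may be technical. Control 36 h library 4 has the word mix in its title, for which no reason is given, and the authors' mean for that group covers only libraries 1 and 3.

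MHC class I molecules show fragments of the cell's own proteins at its surface, where cytotoxic T cells read them. The fragments are cut by the proteasome, carried into the endoplasmic reticulum by the Tap1/Tap2 transporter, and loaded with the help of tapasin (Tapbp) onto a heavy chain (H2-K1 and H2-D1) paired with the light chain beta-2-microglobulin (B2m). Interferons induce most of these genes in many epithelia, and the immunoproteasome forms when Psmb8, Psmb9 and Psmb10 take the places of the constitutive catalytic subunits Psmb5, Psmb6 and Psmb7. Nlrc5 is a transactivator of class I genes.

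Levels are given in TPM, a measure of transcript abundance in which every library has the same total, which are scaled for gene length, and the depth behind them is unknown. Differences between groups are log2 fold changes of TPM + 1, given with the standard error (SE) where a result turns on it, and adding 1 understates the change of genes with low levels. They come from limma, fitted over all 12 libraries and all 14426 genes, with p-values adjusted over all of these genes, and called means that this adjusted p was below 0.05. The fit uses 1 estimate of spread per gene for all 4 groups, so a wide spread in any group enters the p-values at both times. KD 0 h library 2 stood apart: mitochondrially encoded genes held 13.99% of its TPM, against 1.45% to 6.15% in the other 11 libraries, and ribosomal protein genes 12.7%, against 3.90% to 5.90%. It was the lowest of the 12 libraries for 6 of the 10 genes and the highest for B2m. KD 0 h library 3 was the highest for 4 of them, and 27715 genes had a TPM above 0 in it, against 20932 to 23427 in the other 11. The median of all genes tested lay at -0.41 for KD minus control at 0 h, and at -0.02 once the libraries were rescaled by the median of ratios, a scaling that sets the middle of the genes level between libraries. Changes at 0 h are therefore read against that shift, and for the 10 genes and each other gene described as called at 0 h the value after rescaling is given too. The knocked-down gene itself, Snai1, had 0.58, 0.79 and 0.48 TPM in KD cells at 0 h, against 1.34, 2.51 and 1.69 TPM in control cells, and 0.58, 0.44 and 0.20 TPM in KD cells at 36 h, against 2.77, 2.69 and 3.92 TPM in control cells. It was lower in KD at 0 h (-0.80, adjusted p = 0.0348 by limma) and at 36 h (-1.55, adjusted p = 0.0105), with no overlap between libraries, and the call was lost in 11 of 23 alternatives at 0 h and in 5 at 36 h. Rescaling was among those at 0 h (-0.54, adjusted p = 0.157).

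The aggregates carried epithelial markers and next to no transcripts of blood cells. All 6 epithelial markers were measured, and their summed level ranged over 19472 to 25456 TPM in KD and 15897 to 18764 TPM in control cells at 36 h, and over 3325 to 10276 TPM in KD and 10063 to 10278 TPM in control cells at 0 h. Most of that sum was Krt14, a basal keratin, at 18732 TPM in KD and 13388 TPM in control cells at 36 h. Not every marker followed it. Epcam, an epithelial adhesion protein, averaged 489 TPM in KD and 679 TPM in control cells at 36 h, and 605 TPM in KD and 1124 TPM in control cells at 0 h, with every KD library below control at both times. Krt18, a luminal keratin, was likewise separate at 0 h, at 40.0 TPM in KD and 82.2 TPM in control cells. By limma 0 of the 6 were called for KD against control at either time, with adjusted p = 0.0702 for Epcam at 0 h. Of 8 immune cell markers only Cd68, also a lysosomal protein of other cells, passed the filter. Ptprc, which encodes CD45 of all leukocytes, never exceeded 0.17 TPM. The summed level of the 8 was 2.14 to 2.53 TPM in KD and 3.31 to 3.93 TPM in control cells at 36 h, and 6.64 to 10.95 TPM in KD and 9.96 to 14.68 TPM in control cells at 0 h, so its range was not higher in KD at either time. Fibroblast markers, of which 4 of 5 passed the filter, summed to 7.85 to 13.54 TPM in KD and 12.8 to 23.28 TPM in control cells at 36 h, and to 4.7 to 15.76 TPM in KD and 14.42 to 17.12 TPM in control cells at 0 h. Of these, Col1a1 alone was called at 0 h, at 2.06 TPM in KD and 5.13 TPM in control cells (-1.01, adjusted p = 0.0398 by limma). After rescaling it was at -0.68 and not called. At 36 h Col3a1 alone was called, at 0.207 TPM in KD and 1.40 TPM in control cells (adjusted p = 0.0468 by limma). With rescaling Col1a1 was called there in its place (-1.03, adjusted p = 0.0353). Of 3 endothelial markers Pecam1 alone passed the filter, at 6.98 TPM or less. In bulk RNA, fewer cells of a kind and less RNA per cell cannot be told apart.

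Promoter windows of 300 bases, from 250 before to 50 after the annotated start, were available from RefSeq (build GRCm38.p6) for 8 of the 10 genes. They were searched on both strands for the interferon-stimulated response element (ISRE, GAAANNGAAA), the interferon gamma-activated GAS element (TTCNNNGAA), the E-box that proteins of the Snail family are known to bind (CAGGTG), and the CCAAT box (CCAAT), and no match in the windows of these 8 genes overlapped another. Windows of 4 genes are shown, with matches in capitals: B2m and Psmb9, which were called higher in KD at both times, Psmb8, called at 0 h, and the heavy chain H2-K1, which was not called at either time.

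B2m promoter, chr2:122147437-122147736, plus strand: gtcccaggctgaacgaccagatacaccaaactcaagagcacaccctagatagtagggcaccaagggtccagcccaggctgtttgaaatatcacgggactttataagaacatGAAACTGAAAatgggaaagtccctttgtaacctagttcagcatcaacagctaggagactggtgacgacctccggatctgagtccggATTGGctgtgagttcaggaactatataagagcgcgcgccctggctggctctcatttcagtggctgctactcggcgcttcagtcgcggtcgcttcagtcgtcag

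Psmb9 promoter, chr17:34187281-34187580, minus strand: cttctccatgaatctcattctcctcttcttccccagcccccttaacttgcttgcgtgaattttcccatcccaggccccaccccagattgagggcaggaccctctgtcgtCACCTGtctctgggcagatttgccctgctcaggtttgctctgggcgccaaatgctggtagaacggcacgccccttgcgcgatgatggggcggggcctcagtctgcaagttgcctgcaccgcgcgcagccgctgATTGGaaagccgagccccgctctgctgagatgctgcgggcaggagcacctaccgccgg

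Psmb8 promoter, chr17:34197945-34198244, plus strand: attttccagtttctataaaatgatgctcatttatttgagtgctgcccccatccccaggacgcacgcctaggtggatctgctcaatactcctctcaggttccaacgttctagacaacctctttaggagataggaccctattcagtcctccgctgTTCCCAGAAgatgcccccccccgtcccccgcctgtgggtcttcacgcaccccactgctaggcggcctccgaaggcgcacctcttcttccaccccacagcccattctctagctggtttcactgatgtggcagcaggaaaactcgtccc

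H2-K1 promoter, chr17:34000298-34000597, minus strand: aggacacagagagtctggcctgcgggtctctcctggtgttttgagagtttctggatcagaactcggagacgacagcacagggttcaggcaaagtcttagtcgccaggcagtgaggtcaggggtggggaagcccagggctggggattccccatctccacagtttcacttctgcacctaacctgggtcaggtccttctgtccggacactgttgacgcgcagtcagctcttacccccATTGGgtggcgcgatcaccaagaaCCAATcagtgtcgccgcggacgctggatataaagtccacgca

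The B2m window holds an ISRE with its first base at position -139 from the start and a CCAAT box on the other strand at -53. The Psmb9 window holds the E-box on the other strand at -141 and a CCAAT box at -8, and 275 of its bases are shared with the window of Tap1, which is transcribed the opposite way, so both genes have the same E-box and CCAAT box in view. The Psmb8 window holds a GAS element at -97, and the H2-K1 window holds CCAAT boxes on both strands. H2-D1 and Tapbp each have 2 CCAAT boxes, and Psmb10 has none of the 4 motifs. Among 32851 RefSeq windows of the same length, 3.44% hold this ISRE, 8.30% the GAS element, 20.2% the E-box and 37.4% the CCAAT box. A match is a run of letters and not a shown binding site. Only these 4 patterns were searched, so a window without a match may still hold such an element in other letters, or elements of other kinds.

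B2m, the light chain shared by all classical class I molecules, was the most abundant of the 10 genes and was higher in KD cells at both times. At 0 h it had 1592, 1886 and 1395 TPM in KD cells, against 609, 656 and 601 TPM in control cells. At 36 h it had 927, 983 and 1351 TPM in KD cells, against 461, 531 and 460 TPM in control cells. Every KD library lay above every control library of its time. The mean in KD was 2.61 times that in control at 0 h (log2 fold change 1.37, SE 0.181, 95% interval 0.98 to 1.77, adjusted p = 0.00177 by limma) and 2.25 times at 36 h (1.15, SE 0.181, adjusted p = 0.0150). After rescaling by the median of ratios the log2 fold changes were 1.84 at 0 h and 1.25 at 36 h, each with the larger SE of 0.320. Both were still called by limma, with higher adjusted p, 0.00415 at 0 h and 0.0462 at 36 h. The call at 0 h held on leaving out each library in turn and was lost when the 0 h groups were fitted alone (adjusted p = 0.0509), and the call at 36 h was lost without control 36 h library 1 or 4 or KD 36 h library 2 or 3 (adjusted p up to 0.323 over all alternatives).

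Neither H2-K1 nor H2-D1, classical heavy chains that pair with B2m, was called at either time. H2-K1, a classical chain, had 127, 119 and 206 TPM in KD cells at 0 h, against 194, 194 and 248 TPM in control cells, and 138, 143 and 149 TPM in KD cells at 36 h, against 167, 152 and 157 TPM in control cells. The KD libraries overlapped those of control at 0 h and lay just below them at 36 h. Its log2 fold change was -0.52 at 0 h (SE 0.218, adjusted p = 0.108 by limma) and -0.14 at 36 h (adjusted p = 0.851), and -0.06 at 0 h after rescaling. Without KD 0 h library 3 the fall at 0 h was called (adjusted p = 0.0110).

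H2-D1, also a classical chain, had 112, 56.8 and 194 TPM in KD cells at 0 h, against 94.98, 93.01 and 130 TPM in control cells, and 104, 133 and 126 TPM in KD cells at 36 h, against 76.1, 63.8 and 59.5 TPM in control cells. At 0 h the KD libraries spread to both sides of control (0.03, SE 0.359, adjusted p = 0.951 by limma, and 0.49 after rescaling), and at 36 h all of them lay above control (0.85, SE 0.359, adjusted p = 0.262). The change at 36 h was called after rescaling (0.95, adjusted p = 0.0287) and without KD 0 h library 2. H2-K1, H2-D1 and the other heavy chains are related in sequence to differing degrees, and the BALB/c origin of HC11 gives it other alleles than the reference strain. Reads may therefore have been split between these genes, and single levels are uncertain.

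Set against each other within a library, a description chosen after the values were seen and not tested, B2m stood at 4.10 ± 0.718 times the summed level of H2-K1 and H2-D1 in KD and 2.16 ± 0.284 times in control cells at 36 h (SD, n = 3 each). At 0 h the ratio was 6.67, 10.70 and 3.49 in the KD libraries and 2.11, 2.29 and 1.59 in the control libraries. The KD libraries were above the control libraries at both times, and the 0 h KD values spread over the widest range. H2-D1 per H2-K1 was 0.841 ± 0.0869 in KD and 0.419 ± 0.0374 in control cells at 36 h, and 0.766 ± 0.254 in KD and 0.498 ± 0.0234 in control cells at 0 h. KD 0 h library 2, at 0.475, was the KD library below control.

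Neither chain of the peptide transporter nor tapasin was called at either time. Tap1, a chain of the transporter, had 5.17, 2.76 and 7.89 TPM in KD cells at 0 h, against 7.76, 7.25 and 8.17 TPM in control cells, and 9.12, 11.3 and 8.09 TPM in KD cells at 36 h, against 11.1, 4.80 and 6.54 TPM in control cells. Its groups overlapped at both times (-0.56, adjusted p = 0.232 at 0 h, and 0.36, adjusted p = 0.692 at 36 h by limma). After rescaling the 0 h value was -0.18. Tap2, the partner chain of the transporter, had 15.5, 4.71 and 22.01 TPM in KD cells at 0 h, against 15.3, 17.3 and 18.2 TPM in control cells, and 27.2, 21.3 and 25.3 TPM in KD cells at 36 h, against 16.5, 12.5 and 13.9 TPM in control cells. It overlapped at 0 h (-0.47, adjusted p = 0.399, and -0.05 after rescaling) and lay wholly above control at 36 h without being called (0.74, adjusted p = 0.416).

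Tapbp had 167, 47.2 and 192 TPM in KD cells at 0 h, against 153, 156 and 190 TPM in control cells, and 166, 174 and 167 TPM in KD cells at 36 h, against 146, 117 and 130 TPM in control cells. Its pattern was that of Tap2, with overlap at 0 h (-0.52, adjusted p = 0.357 by limma, and -0.06 after rescaling) and separate groups at 36 h (0.37, adjusted p = 0.765). In all 3 genes KD 0 h library 2 was the lowest of the 12 libraries. Without it the log2 fold changes at 0 h were 0.12 for Tap2 and 0.11 for Tapbp, a change of sign, and -0.24 for Tap1, and at 36 h Tap2 and Tapbp were called higher in KD.

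**Figure D1:**
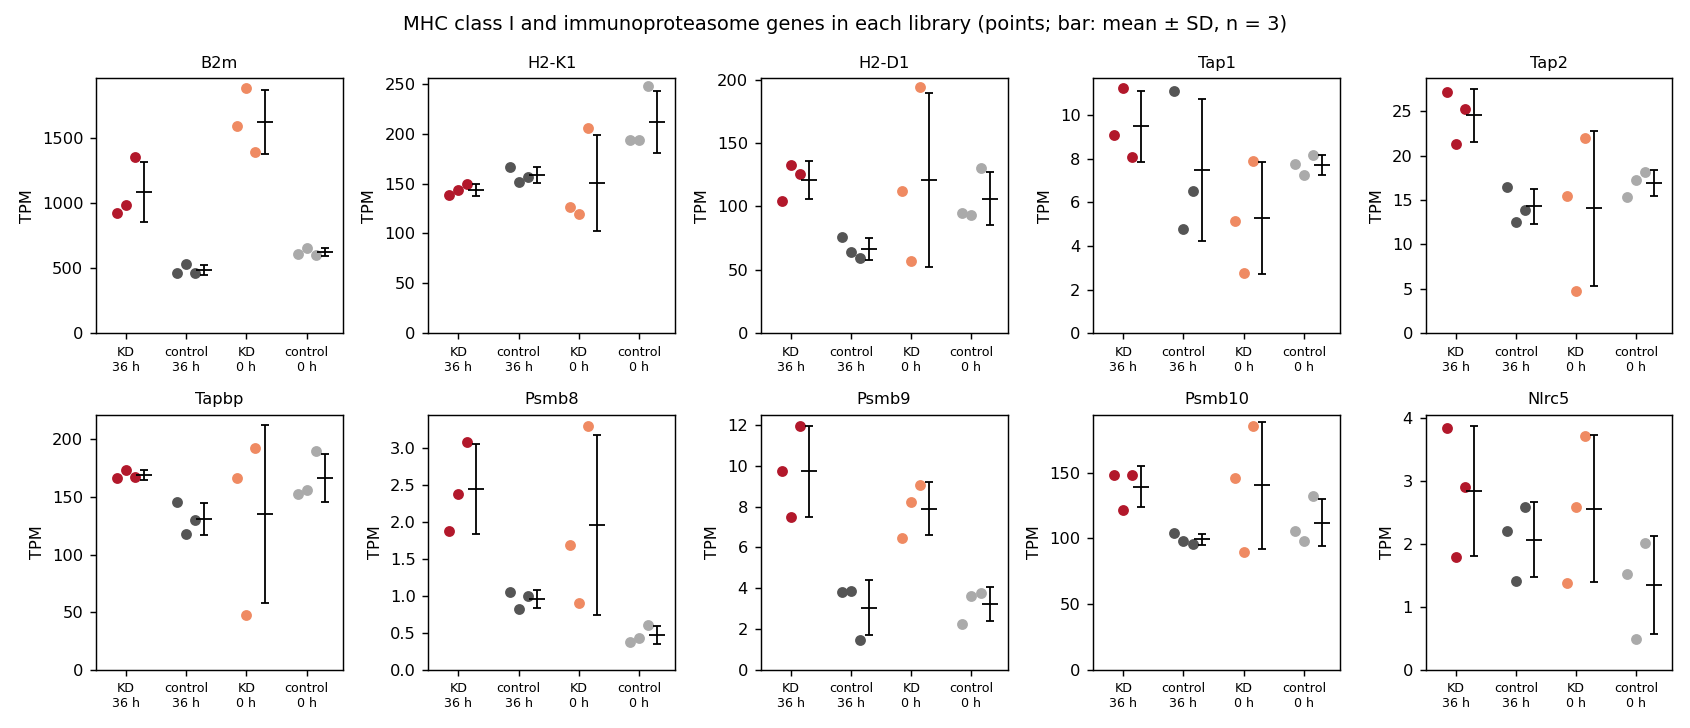
TPM of the 10 genes in each library (points), with the mean and SD of each group (bars, n = 3), for KD and control at 36 h and at 0 h, each panel on its own linear axis. B2m and Psmb9 in KD lie above control at both times, and the KD group at 0 h has the widest spread for most of the other genes.

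The immunoproteasome subunits were low in 2 cases and abundant in the third. Psmb9, which replaces Psmb6, had 6.47, 8.21 and 9.04 TPM in KD cells at 0 h, against 2.24, 3.63 and 3.76 TPM in control cells. At 36 h it had 9.74, 7.49 and 11.96 TPM in KD cells, against 3.82, 3.85 and 1.48 TPM in control cells. The groups did not overlap at either time. It was higher in KD at 0 h (1.09, SE 0.301, 95% interval 0.43 to 1.75, adjusted p = 0.0314 by limma) and at 36 h (1.45, SE 0.301, 95% interval 0.79 to 2.11, adjusted p = 0.0334). After rescaling the values were 1.49 at 0 h and 1.51 at 36 h, both called. The call at 0 h was lost without any one of the 3 control 0 h libraries, and the call at 36 h without any one of 8 libraries, among them all 3 of KD at 36 h, with adjusted p up to 0.121 and 0.292 over all alternatives.

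Psmb8, which replaces Psmb5, had 1.68, 0.90 and 3.29 TPM in KD cells at 0 h, against 0.37, 0.43 and 0.60 TPM in control cells, and 1.87, 2.37 and 3.08 TPM in KD cells at 36 h, against 1.05, 0.82 and 0.99 TPM in control cells. All KD libraries lay above those of control at both times. It passed the filter of 1 TPM in 3 libraries only through the KD groups, in which 5 libraries reached 1 TPM against 1 in control, so its difference is in part a condition of its being tested. It was called higher in KD at 0 h (0.93, SE 0.281, adjusted p = 0.0425 by limma, and 1.15 after rescaling) and not at 36 h (0.80, adjusted p = 0.172). That call was lost on leaving out any 1 of the other 11 libraries, and held without KD 0 h library 2.

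Psmb10, which replaces Psmb7, had 146, 89.6 and 186 TPM in KD cells at 0 h, against 106, 98.1 and 132 TPM in control cells, and 148, 121 and 148 TPM in KD cells at 36 h, against 104, 98.2 and 95.6 TPM in control cells. The groups overlapped at 0 h and were separate, KD above control, at 36 h. Neither difference was called (0.27, adjusted p = 0.429 at 0 h, and 0.48, adjusted p = 0.396 at 36 h by limma). Rescaling moved the 0 h value to 0.73 with a call (adjusted p = 0.0115), and leaving out KD 0 h library 2 gave calls at both times.

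Nlrc5, the class I transactivator, had 1.38, 2.58 and 3.72 TPM in KD cells at 0 h, against 1.52, 0.49 and 2.02 TPM in control cells, and 3.85, 1.79 and 2.90 TPM in KD cells at 36 h, against 2.2, 1.41 and 2.58 TPM in control cells. Its libraries overlapped at both times (0.61, adjusted p = 0.210 at 0 h, and 0.31, adjusted p = 0.762 at 36 h by limma). After rescaling the 0 h value was 0.92, not called.

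Counted together, 3 of the 10 genes were called for KD against control at 0 h, all of them higher (B2m, Psmb8 and Psmb9), where 17.7% of all tested genes were called, 3.1% higher and 14.6% lower. At 36 h 2 of the 10 were called, both higher (B2m and Psmb9), where 2.53% of all tested genes were called, 0.894% higher and 1.64% lower. The median log2 fold change of the 10 was 0.15 at 0 h, beside -0.41 over all tested genes, and 0.61 at 36 h, beside -0.09 over all tested genes. After rescaling these became 0.61 beside -0.02 at 0 h and 0.71 beside 0.00 at 36 h. With rescaling 4 were called higher at 0 h (7.73% of all tested genes) and 3 at 36 h (2.28%), H2-D1 being the addition at 36 h and Psmb10 at 0 h. At 36 h the libraries of KD lay wholly above those of control for 7 of the 10 genes, where 14.8% of all tested genes did so, and wholly below for H2-K1, where 22% did so. At 0 h KD lay wholly above control for the 3 called genes (7.24% of all tested genes) and wholly below for none (30.7%). Psmb8 entered these counts through the filter. Without it 2 of the other 9 genes were called at each time. Among these 9 genes KD lay wholly above control for 2 at 0 h and 6 at 36 h, and their median was 0.03 at 0 h and 0.48 at 36 h. The share of calls that were higher in KD over all genes at 0 h was 17.5%, and 41.6% after rescaling.

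These counts moved with single libraries, and the part of the mitochondrial and ribosomal share of KD 0 h library 2 in them was not tested. Without KD 0 h library 2, left out for its composition, 4 of the 10 were called at 0 h (the first 3 and Psmb10) and 7 at 36 h (B2m, H2-D1, Tap2, Tapbp, Psmb8, Psmb9 and Psmb10). Both counts hold Psmb8, which entered through the filter. In that fit calls over all genes rose too. Of 14227 tested genes 3369 were called at 0 h, 973 of them higher, and 2699 at 36 h, 998 of them higher. The median of the 10 at 36 h was 0.61, as with all libraries. Without KD 0 h library 3, 3 of the 10 were called at 0 h, B2m and Psmb9 higher and H2-K1 lower. The median of the 10 was then -0.17 at 0 h, beside -0.59 over all genes. Of 14276 tested genes 5869 were called at 0 h, 831 of them higher. At 36 h 0 of the 10 were called without control 36 h library 1 or 4 or KD 36 h library 2 or 3. These fits gave 24 to 32 calls over all genes at 36 h. Over all 24 alternatives the count of the 10 ran over 0 to 5 at 0 h and 0 to 7 at 36 h.

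**Figure D2:**
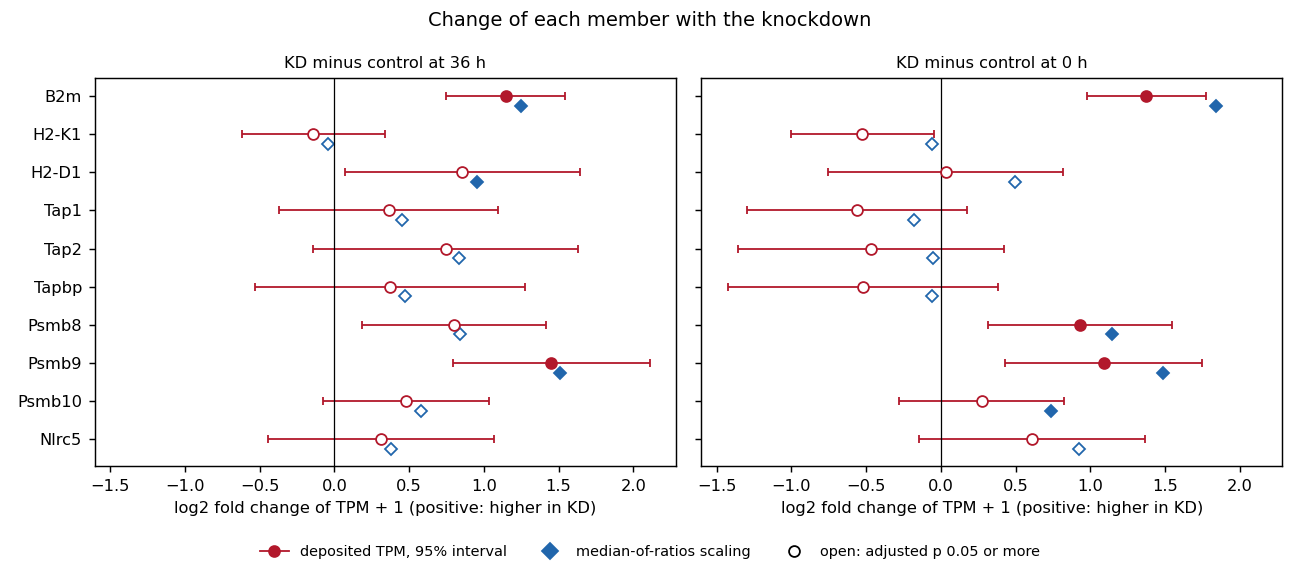
Log2 fold change of TPM + 1 of each gene for KD minus control at 36 h and at 0 h, as circles with the 95% interval for the deposited TPM and as diamonds after median-of-ratios scaling, filled where the adjusted p was under 0.05. At 0 h the diamonds lie to the right of the circles for all 10 genes, and B2m and Psmb9 are filled in both panels.

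The constitutive subunits that the immunoproteasome subunits replace did not pass the test in any comparison. Psmb5 had 284, 220 and 229 TPM in KD cells at 0 h, against 220, 254 and 239 TPM in control cells, and 236, 231 and 283 TPM in KD cells at 36 h, against 245, 262 and 227 TPM in control cells. Psmb6 averaged 719 TPM in KD and 709 TPM in control cells at 36 h, and 545 TPM in KD and 784 TPM in control cells at 0 h. Psmb7 averaged 157 TPM in KD and 178 TPM in control cells at 36 h, and 125 TPM in KD and 148 TPM in control cells at 0 h. By limma 0 of the 3 were called at either time, as after rescaling, and 0 had an unadjusted p under 0.05.

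As a share of its counterpart, each immunoproteasome subunit had a higher mean in KD cells at both times. Psmb8 stood at 0.969% ± 0.157 of Psmb5 in KD and 0.393% ± 0.0689 in control cells at 36 h, and at 0.811% ± 0.547 in KD and 0.196% ± 0.0475 in control cells at 0 h (SD, n = 3 each). Psmb9 stood at 1.35% ± 0.316 of Psmb6 in KD and 0.423% ± 0.170 in control cells at 36 h, and at 1.89% ± 1.33 in KD and 0.410% ± 0.104 in control cells at 0 h. Psmb10 reached 88.6% ± 9.53 of Psmb7 in KD and 56.0% ± 5.20 in control cells at 36 h, and 115% ± 17.1 in KD and 77.4% ± 23.1 in control cells at 0 h. The 0 h means of KD rested in part on single libraries. That of Psmb9 was 1.14% without KD 0 h library 2, and that of Psmb8 was 0.500% without KD 0 h library 3. Thus the RNA of Psmb8 and Psmb9 was a small part of that of their counterparts in both kinds of cell, while Psmb10 and Psmb7 were of like abundance. KD and control libraries did not overlap except for Psmb10 at 0 h. Psmb8, among the separate ones, had passed the filter only through the KD groups. The exact two-sided permutation test gave p = 0.1 for the separate groups, which is the smallest that 3 against 3 allows (0.15 adjusted over 12 such tests), and p = 0.2 for Psmb10 at 0 h, so none could pass 0.05.

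**Figure D3:**
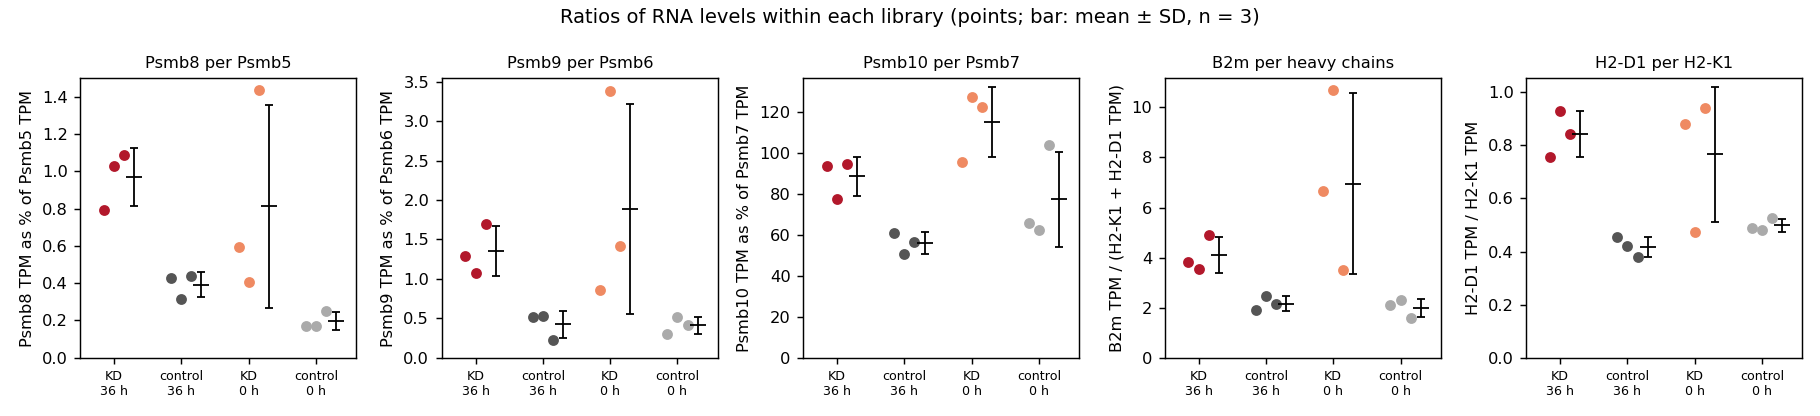
Ratios of RNA levels within each library (points) with the mean and SD of each group (bars, n = 3): Psmb8, Psmb9 and Psmb10 as a percent of their constitutive counterparts, B2m per summed H2-K1 and H2-D1, and H2-D1 per H2-K1. KD libraries lie above control libraries in every panel at 36 h, and at 0 h KD and control overlap for Psmb10, and KD library 2 lies below all control libraries for H2-D1 per H2-K1.

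The other genes of the pathway were counted in 8 lists. Among proteasome activators and assembly factors, Psme1, a subunit of the PA28 activator that interferon gamma is known to induce, was called higher in KD at both times, with 211, 215 and 224 TPM in KD cells at 36 h, against 136, 140 and 138 TPM in control cells, and 212, 230 and 231 TPM in KD cells at 0 h, against 157, 154 and 152 TPM in control cells. The libraries of KD and control were far apart at both times (0.65, adjusted p = 0.0417 at 36 h, and 0.53, adjusted p = 0.0293 at 0 h by limma). The assembly factor Psmg4 was called higher at 0 h (0.71, adjusted p = 0.0279), at 110 ± 16.3 TPM in KD and 66.2 ± 4.19 TPM in control cells. These were 2 of 9 genes at 0 h, where 3.1% of all tested genes were called higher, and 1 of 9 at 36 h, where 0.894% were. After rescaling 3 of the 9 were called higher at 0 h (7.73% of all tested genes), with 1.00 for Psme1 and 1.17 for Psmg4, and 0 at 36 h. Of the 11 remaining subunits of the 20S core 0 were called at either time by limma, 0 had an unadjusted p under 0.05, and 1 was called higher at 0 h after rescaling.

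Few genes that load class I molecules or act on their transcription were called, and those that were lay lower in KD at 0 h, a direction that most calls over all genes shared. Tapbpl, which encodes the tapasin-related chaperone TAPBPR, had 12.6, 10.4 and 14.4 TPM in KD cells at 0 h, against 27.4, 23.3 and 30.4 TPM in control cells, with no overlap (-1.06, adjusted p = 0.00828 by limma, and -0.62 after rescaling, still called). At 36 h it had 15.9, 15.4 and 12.6 TPM in KD and 28.7, 21.9 and 24.5 TPM in control cells, again with no overlap, and was not called. It was the 1 gene called at 0 h of 6 that load or trim peptides, where 14.6% of all tested genes were called lower. The median of the 6 was -0.69, beside -0.41 over all tested genes. At 36 h 0 of the 6 were called and 1 had an unadjusted p under 0.05, as 16.3% of all tested genes had.

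Of 15 transcription factors of class I genes 2 were called at 0 h, both lower in KD, a share near the 14.6% of all tested genes called lower, and the median of the list was -0.63 beside -0.41 over all tested genes. Rela, the p65 subunit of NF-kappa-B, had 42.9, 11.8 and 48.6 TPM in KD cells, against 85.6, 87.3 and 92.4 TPM in control cells (-1.56, adjusted p = 0.0277 by limma, and -1.12 after rescaling). Rfxank, a subunit of the RFX complex that binds class I and class II promoters, had 18.9, 10.4 and 20.7 TPM in KD cells, against 31.0, 37.8 and 38.8 TPM in control cells (-1.11, adjusted p = 0.0138, and -0.67 after rescaling). In both, all KD libraries lay below control, and KD 0 h library 2 was the lowest. After rescaling 4 of the 15 were called lower at 0 h, where 1566 of 14426 tested genes were. In the same fit 1 of the 15 was called higher, where 7.73% of all tested genes were. At 36 h 0 of the 15 were called, and 1 had an unadjusted p under 0.05, as 16.3% of all tested genes had. Rescaling gave 1 of the 15 called higher at 36 h, where 2.28% of all tested genes were.

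Irf1, an interferon-induced activator of class I genes, had 52.8, 50.3 and 52.2 TPM in KD and 41.2, 45.2 and 41.6 TPM in control cells at 36 h (0.27, adjusted p = 0.760), and 30.3 ± 13.8 TPM in KD and 39.2 ± 2.56 TPM in control cells at 0 h.

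The interferon genes in the list, Ifng, Ifnb1, Ifnl2 and Ifnl3, were near the bottom of the scale, and other interferon genes were not examined. Ifng was at 0 in every library, Ifnb1 never exceeded 0.44 TPM, and Ifnl2 and Ifnl3 reached at most 1.91 and 1.2 TPM. Of 12 tested genes for receptors, kinases and feedback, 1 was called at 0 h, the feedback inhibitor Socs3, with 27.7, 9 and 35.3 TPM in KD cells, against 48.1, 59.7 and 57.5 TPM in control cells (-1.35, adjusted p = 0.0394 by limma, and -0.92 after rescaling). That 1 of 12 stands beside 14.6% of all tested genes called lower. After rescaling 1 of the 12 was called lower and 1 higher at 0 h, where 1566 of 14426 tested genes were called lower and 7.73% higher. Usp18, a feedback inhibitor of interferon receptor signalling named here after its values were seen, had 20.6 ± 11.8 TPM in KD and 5.95 ± 1.67 TPM in control cells at 36 h, with separate groups. At 0 h it had 19.6 ± 21.1 TPM in KD and 6.48 ± 8.34 TPM in control cells, with overlap (SD, n = 3 each). It was not called (1.49, adjusted p = 0.417 at 36 h, and 1.55, adjusted p = 0.181 at 0 h). By limma 0 of the 12 were called at 36 h, after rescaling too, and 0 had an unadjusted p under 0.05 there.

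Of 13 tested other class I and class I-like heavy chains 1 was called at 0 h, Cd1d1, a lipid-presenting chain that also pairs with B2m, at 4.13 ± 2.02 TPM in KD and 8.53 ± 0.598 TPM in control cells (-0.98, adjusted p = 0.0438 by limma, and -0.62 after rescaling), where 14.6% of all tested genes were called lower. After rescaling H2-T22, at 27.9 TPM in KD and 21.4 TPM in control cells at 0 h, was called higher at that time (0.82, adjusted p = 0.0154). It was the 1 of the 13 called higher then, where 7.73% of all tested genes were. At 36 h 0 of the 13 were called, and 1 had an unadjusted p under 0.05, as 16.3% of all tested genes had. Rescaling gave 2 of the 13 called higher at 36 h, where 2.28% of all tested genes were. H2-T22 was among them (0.74, adjusted p = 0.0465 by limma), at 33.2 TPM in KD and 20.9 TPM in control cells. Its libraries were separate at 36 h and overlapped at 0 h. The most abundant of the 13, H2-T23, averaged 210 TPM in KD and 174 TPM in control cells at 36 h, and 174 TPM in KD and 181 TPM in control cells at 0 h. MHC class II genes were mostly below the filter, which 2 of 10 passed. Their transactivator Ciita never exceeded 0.22 TPM, and H2-DMa, a class II peptide exchange factor, was called lower at 0 h (-0.89, adjusted p = 0.0279, and -0.46 after rescaling, not called), at 7.39 TPM in KD and 14.4 TPM in control cells. Over 24 alternatives the 0 h call was lost in 3 for Tapbpl, in 5 each for Psmg4 and Rfxank, in 6 for Rela, in 8 for Psme1, in 10 for H2-DMa, in 12 for Socs3 and in 16 for Cd1d1, and the 36 h call of Psme1 was lost in 14.

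**Figure D4:**
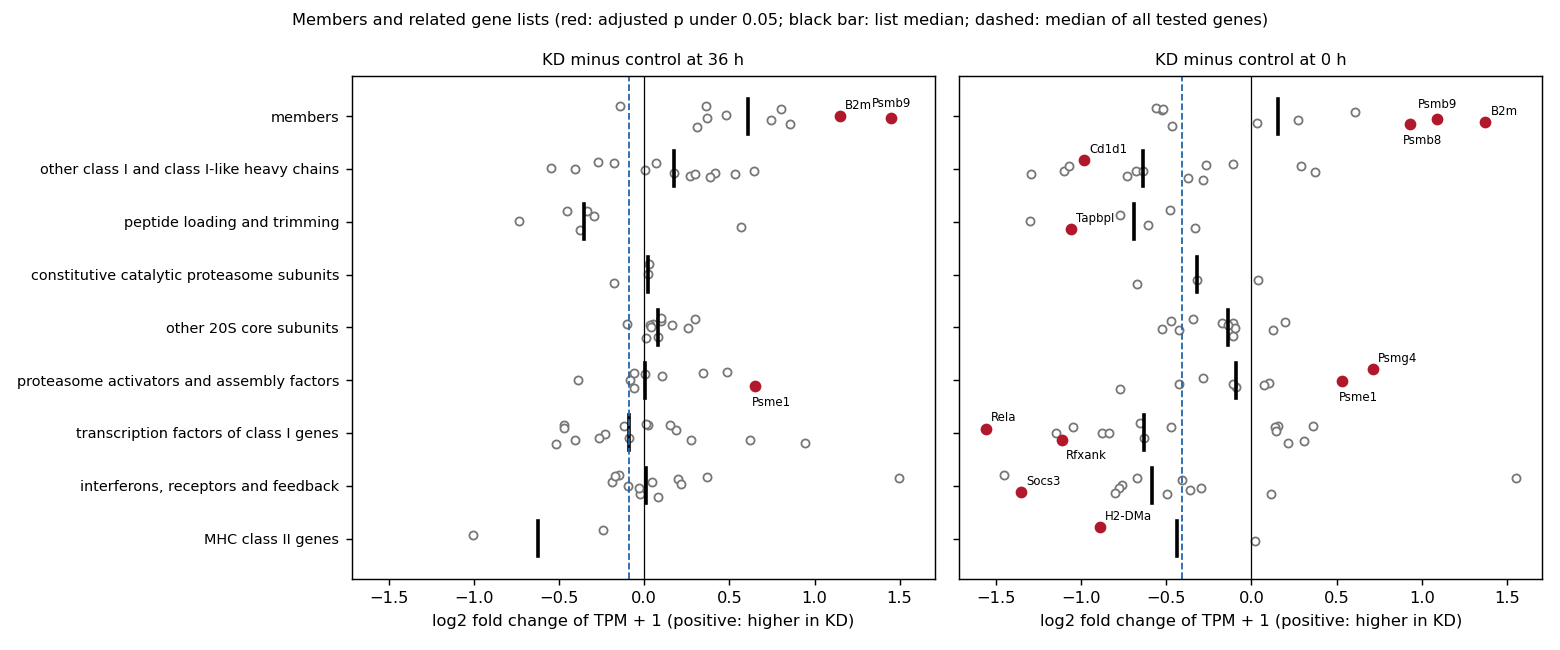
Log2 fold changes of TPM + 1 for KD minus control at 36 h and at 0 h, with 1 point per tested gene, filled red where the adjusted p was under 0.05, a black bar at each list's median and a dashed line at the median of all tested genes (-0.09 at 36 h and -0.41 at 0 h). The 10 class I and immunoproteasome genes (labelled members) have medians of 0.61 and 0.15.

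Over the 36 h of the assay none of the 10 genes was called in either kind of cell. These comparisons use the same libraries as those of KD against control. In control cells 0 of the 10 passed limma's test, 0 had an unadjusted p under 0.05, and 0 were called in any alternative, where 0.36% of all tested genes were called. The 36 h control libraries lay wholly below the 0 h control libraries for B2m (-0.36), H2-K1 (-0.41), H2-D1 (-0.66) and Tapbp, and wholly above them for Psmb8, so 4 of 10 were wholly lower (12.3% of all tested genes) and 1 of 10 wholly higher (9.55%).

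In KD cells 0 of the 10 were called over time, where 1.12% of all tested genes were called. An unadjusted p under 0.05 was found for 3 of the 10, and for 16.4% of all tested genes. The 3 were B2m (-0.59, adjusted p = 0.182 by limma), Tap1 (0.82, adjusted p = 0.280) and Tap2 (0.98, adjusted p = 0.282). B2m was wholly lower (3.91% of all tested genes) and Tap1 wholly higher (15%) at 36 h than at 0 h, and Tap2 overlapped. The median of the 10 was 0.21 beside 0.33 over all genes, and after rescaling -0.11 beside 0.03, a change of sign. Of all calls over time in KD, 88.9% were higher at 36 h, and 75.8% after rescaling.

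Whether the change over time differed between KD and control was tested as an interaction. By limma 0 of the 10 genes passed, with adjusted p between 0.595 and 0.866, and 0 had an unadjusted p under 0.05. Over all 14426 genes 0% passed, 766 genes had an unadjusted p under 0.05, and 1 gene passed after rescaling. The log2 differences of the 10 ran over -0.30 to 1.21, with the upper end at Tap2. Thus the larger count of separate groups at 36 h than at 0 h is not shown to be a difference between the times.

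Among themselves the 10 genes did not vary as 1 unit over the 12 libraries in the deposited TPM. Against the mean of their standardized profiles, of which each gene is a part, Pearson's r was 0.94 for Psmb10, 0.92 for H2-D1, 0.81 for Tap2 and 0.79 for Psmb8, and was lowest for B2m at 0.35 and H2-K1 at 0.24. Of 9340 other genes averaging 5 TPM or more, those most like that mean profile included Ube2l6 (r = 0.946), Irf7 (r = 0.939), Cd164l2, Hexa, Tcirg1, Vps16, Mxi1, Igtp and Srr (r = 0.913 for the last). Irf7 averaged 17.7 TPM in KD and 5.01 TPM in control cells at 36 h, and 15.1 TPM in KD and 5.70 TPM in control cells at 0 h. Ube2l6 averaged 28.3 TPM in KD and 14.1 TPM in control cells at 36 h, and 23.1 TPM in KD and 19.2 TPM in control cells at 0 h. These values describe likeness over libraries that share groups, library composition and the same scaling, and carry no test. They include KD 0 h library 2, the highest of the 12 for B2m and the lowest for 6 of the 10 genes. How far the low r of B2m and H2-K1 rests on that library or on the scaling was not tested.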

How the data were processed

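The deposited table gives gene-level TPM by the authors for 57180 genes in each of 12 libraries, every library summing to the same total. The submitters' processing notes list HISAT2 2.2.1, cutadapt 1.9.1, DESeq2, HTSeq and FastQC, and GRCm39 as the build, without roles, and per the labels' protocols a stranded mRNA kit was used. How the TPM were made, and whether strand was used, is not given in the sources used here. Read depth is unknown, so no counting error is given. Samples were grouped by their titles.

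The 10 genes, the lists and the tests were chosen with earlier results of these data known. A gene was tested if it reached 1 TPM in 3 or more of the 12 libraries (14426 genes). 1 was added to each TPM before log2, and 1 mean per group was fitted with limma 3.58.1 in R 4.3.3 with a variance trend. The 5 comparisons set KD against control at each time, 36 h against 0 h in each kind of cell, and the changes over time against each other. P-values are two-sided, adjusted by Benjamini-Hochberg over all tested genes in each comparison, and the steps were tested on simulated data. The simulation gave every group the same spread, so it does not cover the wider spread of KD at 0 h. Ratios within a library were compared by exact permutation tests (scipy 1.17.1).

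The text names the 10 genes, Snai1, up to 4 called genes per list and comparison with the lowest adjusted p, Psmb5, Psmb6, Psmb7, Irf1 and the 10 genes most like the mean profile (averaging 5 TPM or more, predicted genes and pseudogenes left out). Some of the genes this rule names are not reported here. H2-T23 was added after its values were seen. Alternatives were median-of-ratios scaling, quantile normalization, 0.1 added in place of 1, a 5 TPM filter or none, mitochondrially encoded genes removed, a variance without trend, the replicate number as a block (with and without scaling), separate fits of the groups compared, and each library left out in turn. Leaving out KD 0 h library 2 together with control 36 h library 4, or with median-of-ratios scaling, was added after seeing the data. Libraries shared at most 2.02% identical values among tested genes. Sequences are RefSeq's, on GRCm38.p6, and were not used with coordinates of the authors' build.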

Additional observations from a re-analysis of the deposited data

How the results depend on the processing

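Of the 10 genes, 3 were called for KD against control at 0 h and 2 at 36 h. At 0 h the count was 1 without a filter, 0 when only the groups compared were fitted, 5 with median-of-ratios scaling and KD 0 h library 2 left out, and 1 to 4 on leaving out each library in turn. At 36 h it was 1 without a filter, 4 with quantile normalization, 7 when only the groups compared were fitted, 7 with median-of-ratios scaling and KD 0 h library 2 left out, and 0 to 7 on leaving out each library. Over time in KD it was 0 to 1 on leaving out each library, and over time in control, and for the interaction, it was 0 throughout. Calls over all genes moved too. Without a filter they were 1258 of 35924 at 0 h and 192 at 36 h. With only the groups compared they were 89 of 13328 at 0 h and 2377 of 13491 at 36 h. With median-of-ratios scaling and without KD 0 h library 2, of 14227 genes 3214 were called at 0 h and 2702 at 36 h. Quantile normalization gave 933 calls of 14426 at 36 h. The replicate number as a block gave 0 of the 10 at 36 h, with scaling too, and at 0 h 2, or 4 with scaling. Over all 14426 genes it gave 5 calls at 36 h, or 31 with scaling, and 1011 at 0 h, or 1391 with scaling. Libraries with the same number did not deviate together (correlations -0.20 to 0.13 over the 10 same-numbered pairs, below 0.1 for 8), and the block leaves control 36 h library 4, whose number stands alone, out of the fit in effect. The 0 h log2 fold change of H2-D1 ran over -0.39 to 0.49 on leaving out each library (-0.04 and -0.05 without control 0 h library 1 or 2), that of Tap2 over -0.88 to 0.12 and that of Tapbp over -0.89 to 0.11. Without KD 0 h library 2 and control 36 h library 4 those of Tap2 and Tapbp were 0.12 and 0.11, and 0.30 each with scaling and KD 0 h library 2 left out, and Tap2 stood at 0.012 with quantile normalization. The log2 difference of Psmb9 per Psmb6 between 36 h and 0 h ran over -0.23 to 0.38 in control (0.15 and 0.0013 without control 0 h library 2 or 3) and over -0.72 to 0.27 in KD. Over all genes, calls numbered 2550 at 0 h and 89 to 5869 over the alternatives, 365 at 36 h and 5 to 2702, 52 over time in control and 6 to 401, 162 over time in KD and 19 to 1572, and 0 for the interaction and 0 to 10. The causes were not tested. No depth limit can be given for TPM, and Psmb8, Nlrc5 and Snai1, near 1 TPM, are the least certain levels.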
